A study of Mus musculus with 4 samples.

Results

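The genes described here are the receptor chains for the cytokines of the common gamma chain group, together with the related thymic stromal lymphopoietin (TSLP) receptor and its ligand gene Tslp, in 2 macrophage subsets of the mouse dermis. The list holds 10 genes, namely the shared chain Il2rg, the chains Il7r, Il21r, Il2ra, Il2rb, Il15ra, Il4ra and Il13ra1, the TSLP-binding chain Crlf2, and Tslp. Members were found by gene symbol among the array rows annotated with a single gene, and where a gene has several rows the row with the highest mean over the 4 arrays is used. This gave 9 of the 10 genes, out of 22180 named genes on the array. Il2rg, the gene of the shared chain itself, was not analysed here. The row of a gene was chosen by its mean level over all arrays, and the list was drawn up with earlier results of these arrays known, among them the difference in Il21r. For that reason statements on which chains lie above background are descriptions, and the call for Il21r is not independent of the choice of the list.

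The samples were macrophages sorted from digested ear skin of untreated adult C57Bl/6 mice of genotype Cx3cr1+/gfp. All groups share this genotype, in which GFP replaces 1 copy of Cx3cr1, the fractalkine receptor gene, so no sample had an intact pair of Cx3cr1 alleles. The subsets were CX3CR1low and CX3CR1bright, with 2 arrays each, every array from a pool of 3 to 6 mice, and the 2 pools of a subset came from 2 independent litters. Values are RMA levels on the log2 scale, where 1 unit is a doubling.

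Cytokine receptors of this group are built from interchangeable chains. The common gamma chain joins IL-7R alpha, IL-21R, IL-4R alpha or the IL-2/IL-15 receptor beta chain and signals through JAK1 and JAK3 to STAT proteins, mainly STAT5 for IL-2, IL-7 and IL-15, STAT6 for IL-4 and STAT3 for IL-21. IL-2R alpha and IL-15R alpha bind their cytokine and do not signal alone. IL-4R alpha can instead pair with IL-13R alpha 1 to form a receptor for IL-4 and IL-13, and IL-7R alpha can pair with CRLF2 to form the TSLP receptor, which does not use the gamma chain. In skin TSLP is known chiefly as a keratinocyte product, and IL-4 and IL-13 drive the alternative activation of macrophages.

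The genes of several of these chains lie side by side. In the RefSeq annotation of GRCm38.p6, Il4ra and Il21r are neighbouring protein-coding genes on chromosome 7, and Il2ra and Il15ra are neighbours on chromosome 2. The 250 bases before the annotated start are shown for Il4ra and Il21r, neighbours whose measured differences between the subsets have opposite signs, and for Il7r, the other receptor chain with a large positive difference. They are RefSeq sequences of GRCm38.p6, 5′ to 3′ on the gene's strand. The genome build behind the array rows is not given in the sources used here. Capitals mark a match to 1 of the 3 motifs searched.
Il4ra (chr7:125552021-125552270, plus strand): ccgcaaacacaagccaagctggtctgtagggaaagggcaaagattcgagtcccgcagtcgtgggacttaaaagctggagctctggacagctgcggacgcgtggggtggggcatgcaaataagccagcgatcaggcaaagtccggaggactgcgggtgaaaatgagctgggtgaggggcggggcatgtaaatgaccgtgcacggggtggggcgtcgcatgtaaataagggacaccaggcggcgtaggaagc
Il21r (chr7:125603179-125603428, plus strand): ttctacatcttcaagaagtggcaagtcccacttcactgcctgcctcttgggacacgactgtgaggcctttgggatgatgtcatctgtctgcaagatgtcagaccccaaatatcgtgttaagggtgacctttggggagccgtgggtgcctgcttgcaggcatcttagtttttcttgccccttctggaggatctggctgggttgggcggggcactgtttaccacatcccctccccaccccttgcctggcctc
Il7r (chr15:9529877-9530126, minus strand): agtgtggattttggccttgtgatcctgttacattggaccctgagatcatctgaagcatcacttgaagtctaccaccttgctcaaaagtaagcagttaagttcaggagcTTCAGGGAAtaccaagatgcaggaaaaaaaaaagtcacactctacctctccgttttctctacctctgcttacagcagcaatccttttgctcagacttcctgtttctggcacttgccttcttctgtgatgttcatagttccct
The motifs, searched on both strands, were the STAT pattern TTCNNNGAA, the AP-1 pattern TGANTCA and the PU.1 pattern GAGGAAG. TTCNNNGAA is found in 7.02% of the 32851 promoter windows of the same length in the RefSeq table, TGANTCA in 6.75% and GAGGAAG in 10.6%. The Il7r window holds 1 match, TTCAGGGAA at -142 to -134 from the start, and the Il21r and Il4ra windows hold no match. No 2 matches overlapped in any of the members' windows. Of the other members, the Crlf2 window holds GAGGAAG at -80 to -74, and the 2 Il15ra windows hold 1 match each, to the PU.1 and the AP-1 patterns. A match is a description of the sequence and says nothing of binding in these cells.

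Cx3cr1, which defined the sort, stood at 3.63 and 3.60 on the CX3CR1low arrays and at 8.42 and 8.44 on the CX3CR1bright arrays, in the direction of the labels. All 13 macrophage marker genes with a row, among them Cd68, C1qa, C1qc and Cd163, lay above background on all 4 arrays. Transcripts of other cells were also present. Of 9 keratinocyte genes 8 lay above background on both CX3CR1low arrays, and all 8 tested ones had higher means in CX3CR1bright, with the highest summed level on CX3CR1bright replicate 2. All 8 fibroblast genes were above background throughout and had higher means in CX3CR1bright, and 6 of 7 mast cell genes were above background on every array. The part that other cells played in any result below was not tested, and in bulk RNA a change in the share of cells that carry a transcript and a change in transcript per cell cannot be told apart.

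Background was set by the 1394 olfactory and vomeronasal receptor genes on the array, which are used mainly by sensory neurons of the nose. A member was counted as above background in a subset if both arrays exceeded the 95th percentile of those genes, which was 3.87 to 3.97. In CX3CR1low 9 of 9 members met this, where 48.1% of all named genes did, and in CX3CR1bright 9 of 9 did, where 48.0% of all named genes did. With the 99th percentile (4.47 to 4.75) 8 remained above in CX3CR1low, because Il21r at 4.64 on replicate 1 fell short, and 9 in CX3CR1bright. The members fall into those far above background in both subsets (Il4ra, Il13ra1, Il7r, Crlf2), those that are well above it in 1 subset and near it in the other (Il21r, Tslp), and those that lay 0.71 to 2.14 above it on every array (Il2ra, Il2rb, Il15ra).

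**Figure D1:**
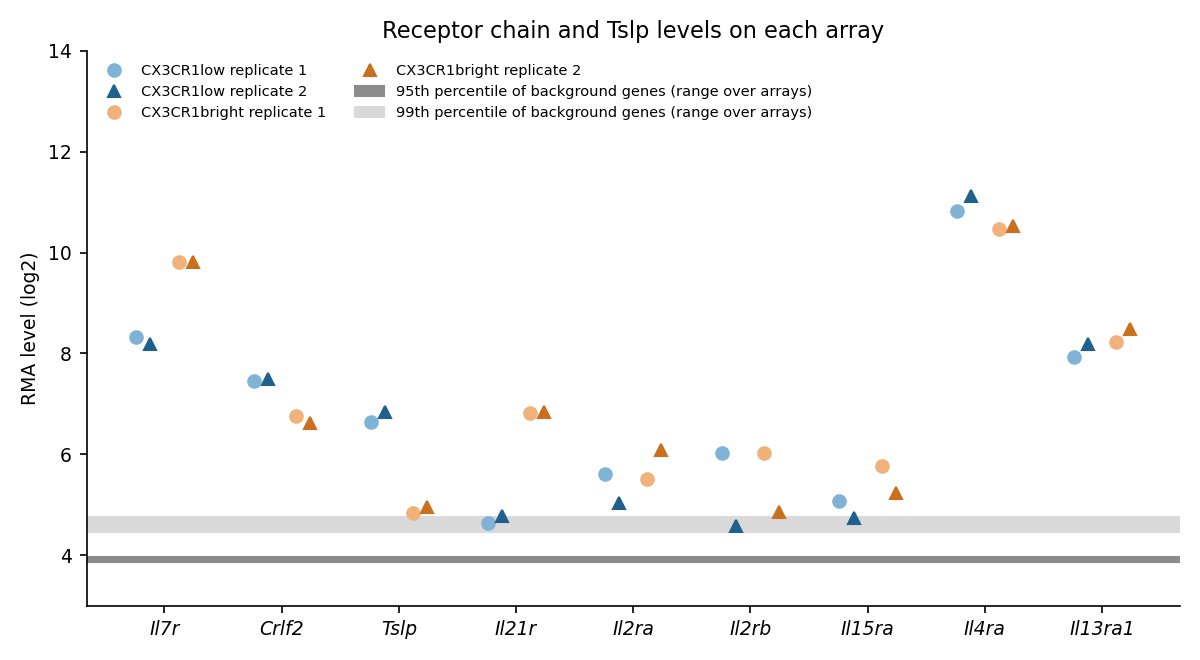
RMA level (log2, y axis) of each of the 9 genes on each of the 4 arrays (blue, CX3CR1low; orange, CX3CR1bright; circles, replicate 1; triangles, replicate 2), with the range over arrays of the 95th (dark grey) and 99th (light grey) percentile of the background genes. Il4ra lies between 10.5 and 11.1, Il21r in CX3CR1low and Tslp in CX3CR1bright lie 0.66 to 1.01 above the 95th percentile, and the Il2rb points split by replicate number, not by subset.

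Subsets were compared with limma over 13133 genes, all 9 members among them, with Benjamini-Hochberg adjustment over all of these genes and differences given as CX3CR1bright minus CX3CR1low with the moderated SE (n = 2 per subset). Of the 9 members 1 passed the threshold of 0.05, where 0.137% of all tested genes did, and it was higher in CX3CR1bright, where 0.0609% of them were called. At an unadjusted p under 0.05 there were 4 members, where 18.8% of all genes tested were. The groups did not overlap for 7 members, 4 with CX3CR1bright higher and 3 with it lower, where 50.4% of all genes lacked overlap, 18.9% with CX3CR1bright higher and 31.5% with it lower. The spread behind these p-values is that between pooled samples, not between single animals. In limma each gene's own spread (2 residual degrees of freedom) is drawn toward that of all tested genes (3.28 prior degrees of freedom). The smallest p that an exact two-sided permutation of 2 against 2 arrays allows is 0.333, so no single gene could be tested that way.

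Il21r, the ligand-binding chain for IL-21 (transcript cluster 17482958), was higher in CX3CR1bright macrophages. It stood at 4.64 and 4.77 on the CX3CR1low arrays and at 6.83 and 6.83 on the CX3CR1bright arrays. The groups lie 2.06 apart at their nearest points, far more than the 0.13 between the CX3CR1low arrays. The difference was 2.13 ± 0.18 (SE), or 4.36-fold, with a 95% confidence interval of 1.66 to 2.59 and an adjusted p of 0.0476 (limma). In CX3CR1low the level is 0.66 and 0.90 above the background limit, so the fold may be limited by background there. The size of the difference was stable, 2.06 to 2.19 with 1 array left out, but the call was not. Leaving out CX3CR1low replicate 1 gave an adjusted p of 0.278 (limma), and leaving out CX3CR1low replicate 2 gave 0.341. It was 0.104 when CX3CR1bright replicate 2 was left out and 0.0365 when CX3CR1bright replicate 1 was. Over all 13 alternatives it ran from 0.0155 to 0.341 and was under 0.05 in 6.

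Of the TSLP receptor chains, Il7r was higher in CX3CR1bright and Crlf2 was lower. The ligand gene Tslp was lower there too, and none of these differences passed the threshold. Il7r (cluster 17315891), the chain that serves both IL-7 and TSLP, stood at 8.32 and 8.19 in CX3CR1low and at 9.81 and 9.81 in CX3CR1bright. Both subsets are thus far above background, by at least 4.32 and 5.86, and the arrays of a subset lie much closer to each other than to the other subset. The difference of 1.56 ± 0.18, or 2.94-fold (interval 1.09 to 2.02), had an adjusted p of 0.0632 (limma). Crlf2 (cluster 17450918), which binds TSLP, stood at 7.45 and 7.48 in CX3CR1low and at 6.75 and 6.62 in CX3CR1bright. Here both CX3CR1bright arrays are the lower ones, by at least 0.69, and the difference was -0.78 ± 0.18 (interval -1.25 to -0.32, adjusted p = 0.135, limma). The receptor's transcripts were therefore measured well above background in both subsets, with Il7r at the higher level in CX3CR1bright and Crlf2 at the higher level in CX3CR1low.

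Tslp (cluster 17349304), the ligand gene, stood at 6.63 and 6.83 in CX3CR1low and at 4.83 and 4.96 in CX3CR1bright. The CX3CR1low arrays are 2.66 and 2.96 above the background limit and the CX3CR1bright arrays 0.90 and 1.01 above it. The difference of -1.84 ± 0.19, which is 3.58-fold (interval -2.33 to -1.35), had an adjusted p of 0.0562 (limma). Levels of keratinocyte genes are given beside it, and their part in the difference was not tested. Krt14, a keratin of basal keratinocytes, stood at 8.54 and 7.64 in CX3CR1low and at 8.60 and 10.6 in CX3CR1bright. The summed level of the 9 keratinocyte genes was 10.3 and 9.76 in CX3CR1low and 10.7 and 11.9 in CX3CR1bright. Fibroblast genes also summed higher in CX3CR1bright, 11.5 and 11.1 against 10.6 and 10.2, while mast cell genes summed to 10.8 and 10.9 in CX3CR1low and 10.6 and 10.5 in CX3CR1bright. Without 1 array the Tslp difference was -1.94 to -1.74.

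**Figure D2:**
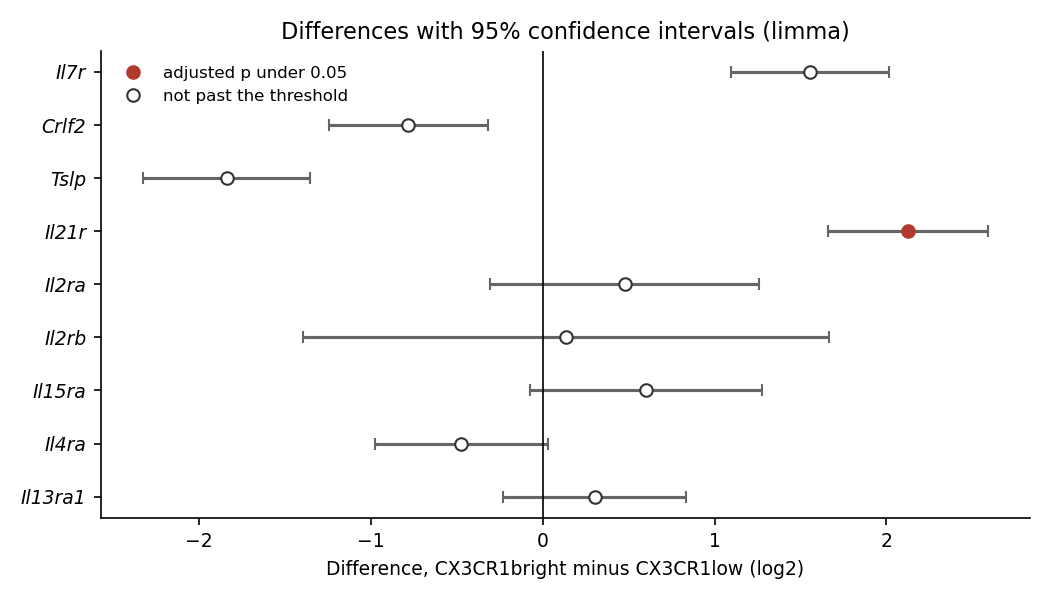
Difference between the subsets (CX3CR1bright minus CX3CR1low, log2, x axis) for each gene with its 95% confidence interval from limma (n = 2 arrays per subset); the filled point passed an adjusted p of 0.05 and the open ones did not. The intervals of Il21r, Il7r, Tslp and Crlf2 lie clear of 0, and that of Il2rb runs from -1.40 to 1.67.

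Il7r and Tslp crossed the threshold under 2 of the 13 alternatives. Both passed with a stricter filter on dim genes (adjusted p = 0.0385 for Il7r and 0.0344 for Tslp, limma) and with an intensity trend in the variance (0.0123 and 0.0232, limma). Neither passed with no filter (0.0884 and 0.0725), under a robust prior (0.0673 and 0.0584) or with the replicate number as a block (0.129 for each, limma). Without CX3CR1low replicate 2 they were at 0.429 and 0.409 (limma), their highest values. Crlf2 passed under none of the 13 alternatives (adjusted p of 0.0821 to 0.541, limma).

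**Figure D3:**
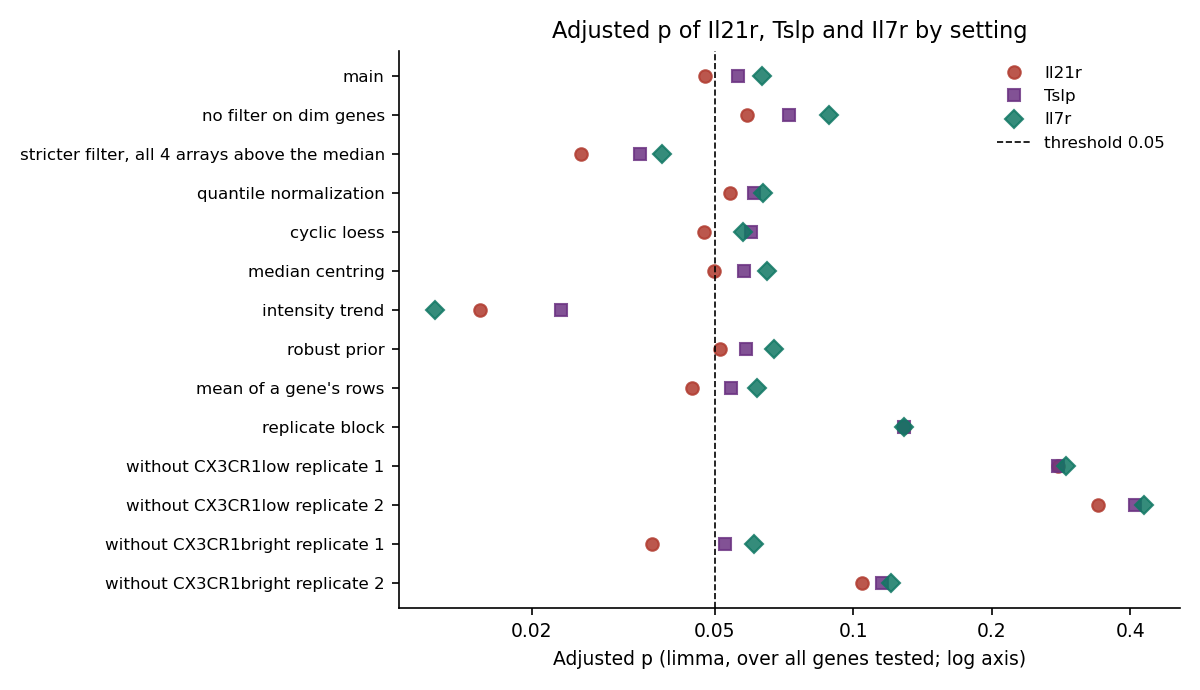
Adjusted p (limma, log x axis) of Il21r (circles), Tslp (squares) and Il7r (diamonds) under the reported setting (top, main) and 13 alternatives; the dashed line is the threshold of 0.05. For each of the 3 genes the highest value comes from leaving out CX3CR1low replicate 2.

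The chains of the IL-4 and IL-13 receptors were far above background in both subsets. Il4ra (cluster 17482943), the chain that binds IL-4, stood at 10.8 and 11.1 in CX3CR1low and at 10.5 and 10.5 in CX3CR1bright, above 99.2% and 99.5% of named genes on the 2 CX3CR1low arrays. The CX3CR1bright arrays are the lower ones by 0.30 at the nearest points, and the difference of -0.47 ± 0.20 (interval -0.98 to 0.030) did not pass (adjusted p = 0.290, limma). Il13ra1 (cluster 17534051), its partner in the receptor that takes both IL-4 and IL-13, stood at 7.93 and 8.19 in CX3CR1low and at 8.24 and 8.48 in CX3CR1bright. The subsets are only 0.048 apart at their nearest points, less than the spread within either, and the difference was 0.30 ± 0.21 (interval -0.23 to 0.83, adjusted p = 0.502, limma).

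The chains of the IL-2 and IL-15 receptors lay nearer to background and did not separate the subsets by the test. Il2ra (cluster 17366992), the alpha chain of the IL-2 receptor, stood at 5.61 and 5.04 in CX3CR1low and at 5.50 and 6.09 in CX3CR1bright, so the groups overlap (difference 0.48 ± 0.31, interval -0.30 to 1.26, adjusted p = 0.472, limma). Il15ra (cluster 17367004), which presents IL-15 to neighbouring cells, stood at 5.07 and 4.74 in CX3CR1low and at 5.78 and 5.23 in CX3CR1bright. Its groups are 0.16 apart, less than the spread within each, and the difference of 0.60 ± 0.27 (interval -0.072 to 1.27) had an adjusted p of 0.308 (limma).

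Il2rb (cluster 17319009), the signalling chain for IL-2 and IL-15, divided by replicate number. It stood at 6.04 on CX3CR1low replicate 1 and 6.03 on CX3CR1bright replicate 1, against 4.58 on CX3CR1low replicate 2 and 4.85 on CX3CR1bright replicate 2. The difference between subsets was 0.13 ± 0.60 (adjusted p = 0.932, limma), and its sign turned with a single array left out, to -0.59 without CX3CR1low replicate 2 and -0.46 without CX3CR1bright replicate 1. The labels do not say that equal numbers share a litter. Il2rb is a gene of T and NK cells, and its pattern was set beside the genes of those cells. Of 8 T cell genes 5 (62.5%), and of 11 NK and innate lymphoid genes 5 (45.5%), were higher on replicate 1 than on replicate 2 in both subsets, where 26.5% of all tested genes were. The 2 list counts include genes too dim to be tested, as 6 of the T cell and 6 of the NK and innate lymphoid genes were tested. These shares are therefore over unlike sets. Nkg7, a granule protein gene, stood at 4.28 and 3.47 on CX3CR1low replicates 1 and 2 and at 5.12 and 4.07 on CX3CR1bright replicates 1 and 2. The cytotoxic protease gene Gzmb stood at 4.18 and 3.86 in CX3CR1low and at 5.48 and 3.60 in CX3CR1bright. Cd3g, a chain of the T cell receptor complex, stood at 4.83 and 4.64 in CX3CR1low and at 6.88 and 5.43 in CX3CR1bright. The lymphoid transcription factor genes Tbx21 and Gata3 did not follow the replicate number. Tbx21 stood at 4.10 and 4.39 in CX3CR1low and at 4.78 and 4.77 in CX3CR1bright, and Gata3 at 5.03 and 4.75 against 5.28 and 5.57.

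Across the 8 T cell genes with a row, 4 and 3 were above background on the CX3CR1low arrays and 6 and 3 on the CX3CR1bright arrays, and their summed level was 7.12 and 7.01 against 8.32 and 7.26. For the 11 NK and innate lymphoid genes the summed level was 7.58 and 7.43 against 7.99 and 7.66. The NK receptor gene Ncr1, chosen after its values were seen, lay at 3.38 to 3.70 and below the background limit on all arrays. The monocyte gene Ly6c2, also chosen after its values were seen, split by number too, at 7.54 and 3.90 in CX3CR1low and 6.89 and 4.66 in CX3CR1bright. Of the other monocyte genes with a row, Ccr2, Plac8 and S100a4 were also higher on replicate 1 in both subsets, and Vcan and Fn1 were not. Ccr2, Vcan and Fn1 were higher on both CX3CR1bright arrays than on either CX3CR1low array, with differences of 1.90, 0.86 and 1.34. The part of lymphocyte or monocyte transcripts in the Il2rb levels was not tested. T cells also express Il7r and Il21r, and the part of T cells in those levels was not tested either.

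**Figure D4:**
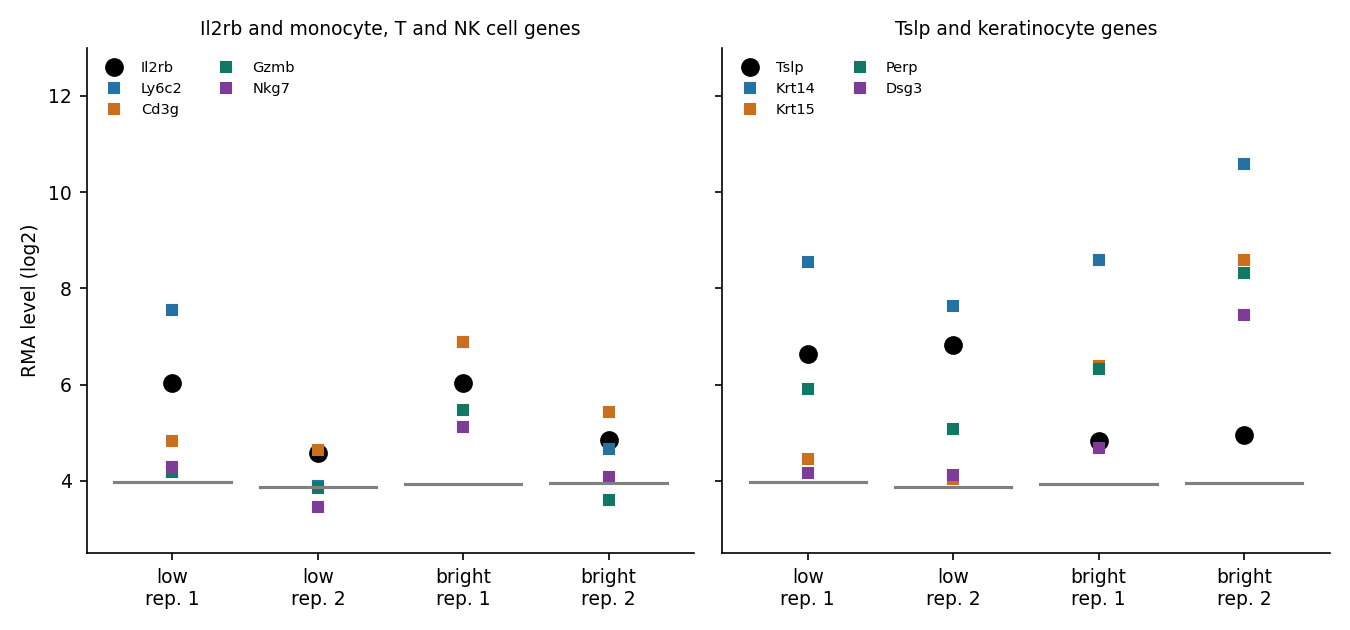
RMA levels (log2, y axis) on the 4 arrays (x axis) of Il2rb with the monocyte gene Ly6c2, the T cell gene Cd3g and the NK and T cell genes Gzmb and Nkg7 (left), and of Tslp with the keratinocyte genes Krt14, Krt15, Perp and Dsg3 (right); grey bars mark each array's background limit. Il2rb is near 6.0 on both arrays numbered 1 and below 5 on both numbered 2, and Tslp is at 4.83 and 4.96 on the CX3CR1bright arrays.

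Most of the other ligand genes for these receptors were at background in the sorted cells. Il2, Il4, Il7, Il9 and Il21, and the further chains Il9r and Il13ra2, a decoy receptor for IL-13, were above background in neither subset, the highest single value being 4.22 for Il4 on CX3CR1low replicate 1. That value exceeds the array's limit of 3.97. Il4 also exceeded the limit on CX3CR1bright replicate 2 (3.99 against 3.95), but on the other array of each subset it did not. Besides Tslp, Il15 was above background in both subsets, at 5.97 and 5.29 in CX3CR1low and 5.51 and 5.46 in CX3CR1bright, with overlapping groups. Il13 was above it in CX3CR1low alone, at 4.54 and 5.31, against 4.18 and 3.88 in CX3CR1bright (difference -0.89 ± 0.31, adjusted p = 0.220, limma). The signal transducers were present. Of 9 JAK and STAT genes with a row, 8 were above background in CX3CR1low and 9 in CX3CR1bright, where 48.1% and 48.0% of all named genes were. In this list 1 gene passed the test, where 0.137% of all tested genes did, and the median difference was 0.071, against -0.070 over all tested genes. The gene that passed was Stat4, a STAT best known from IL-12 signalling, which stood at 3.94 and 3.77 in CX3CR1low, near background, and at 6.69 and 6.66 in CX3CR1bright (2.82 ± 0.19, adjusted p = 0.0476, limma). Its call was lost when either CX3CR1low array (replicate 1 or replicate 2) or the second CX3CR1bright array was left out, where 0 genes of the whole table passed (limma, 1453, 1212 and 2180 at an unadjusted p under 0.05), and with the replicate number as a block, where 0 passed too (limma, 2637 at an unadjusted p under 0.05). With no filter on dim genes, after quantile normalization and under a robust prior, 1 gene of the whole table passed, against 18 in the reported setting. The adjusted p of Stat4 under these alternatives is not given here. In the reported setting Cx3cr1 had a lower one than Stat4, 0.00966 against 0.0476 (limma). Jak2, a kinase used by the TSLP receptor, stood at 8.77 and 8.84 in CX3CR1low and at 9.96 and 10.2 in CX3CR1bright (1.27 ± 0.19, adjusted p = 0.0845, limma). Stat5b, which carries IL-2, IL-7 and IL-15 signals, differed by -0.54 ± 0.19 and Stat6, which carries the IL-4 signal, by 0.24 ± 0.18, neither past the threshold. Stat5a, the other STAT5 gene, and Stat3, the main STAT for IL-21, were chosen after their values were seen. Stat5a differed by 0.20 ± 0.19 and Stat3 by -0.041 ± 0.19, neither past the threshold.

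Of the 8 feedback genes (SOCS-type inhibitors, phosphatases and the adaptor Sh2b3) all were above background in both subsets and 0 passed the test (limma, 1 at an unadjusted p under 0.05), with a median difference of -0.17. Of these feedback genes 2 had positive and 6 negative differences. Sh2b3 differed by -0.60 ± 0.21 and Socs3, an inhibitor of JAK signalling, by -0.25 ± 0.19. The phosphatase gene Ptpn6 went the other way, by 0.43 ± 0.19, and its groups did not overlap. Of 6 survival genes known as STAT targets 0 passed (limma, 1 at an unadjusted p under 0.05). Neither 1 of 8 nor 1 of 6 is above the 18.8% of all tested genes with such a p. Of the survival genes 3 had positive and 3 negative differences, with a median of -0.073. The survival gene Bcl2, which IL-7 maintains in lymphocytes, stood at 6.22 and 6.66 in CX3CR1low and at 7.26 and 7.33 in CX3CR1bright (0.86 ± 0.22, adjusted p = 0.155, limma). Osm, Mcl1 and Pim1 were lower on both CX3CR1bright arrays than on either CX3CR1low array, with differences of -0.45, -0.30 and -0.26.

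Genes that respond to IL-4 and IL-13 in macrophages went both ways. Of 17 tested, 7 had positive and 10 negative differences, where 42.5% of all tested genes were positive. The median was -0.38, and 0 passed (limma, 11 at an unadjusted p under 0.05, where 18.8% of all genes tested were). The lectin gene Clec10a stood at 9.09 and 9.31 in CX3CR1low and at 7.69 and 7.03 in CX3CR1bright, and the eosinophil attractant gene Ccl24 at 9.07 and 9.52 against 7.94 and 7.80. Alox15, a lipid-oxidising enzyme, went the other way, from 3.82 and 3.47 to 5.41 and 4.77. Both of its CX3CR1low values lay below background, so the size of its difference may be limited there. Genes known to respond to TSLP in dendritic cells all had positive differences, 7 of 7 with a median of 1.12, where 42.5% of all tested genes were positive. Of these 0 passed (limma, 6 at an unadjusted p under 0.05), where 0.137% of all tested genes passed and 18.8% had such a p. Ccr7, which guides cells to lymph nodes, stood at 5.51 and 5.88 in CX3CR1low and at 8.04 and 7.79 in CX3CR1bright, and the chemokine gene Ccl22 at 4.32 and 4.11 against 6.08 and 5.73. Tnfsf4, the OX40 ligand gene, stood at 2.91 and 3.39 against 4.44 and 4.11, so it was below background in CX3CR1low. Ccr7 is also in the dendritic cell list, and Ccl17 and Ccl22 are also in the IL-4 and IL-13 list. The lists were chosen with earlier results of these data known, so their counts are descriptions. The summed level of dendritic cell genes was higher too, at 8.07 and 8.24 in CX3CR1low and 9.42 and 9.33 in CX3CR1bright. Of the 9 tested, 7 had positive differences and 2 negative ones, Kmo, without overlap, and Xcr1. Langerhans cell genes summed to 9.63 and 9.59 against 10.5 and 11.2. Among them Epcam stood at 4.53 and 6.73 on CX3CR1bright replicates 1 and 2, the second having the highest keratinocyte sum. On these arrays Cd207 stood at 6.97 and 7.54 and Il1r2 at 8.18 and 7.98. The part of dendritic cells, Langerhans cells or keratinocytes in the TSLP response differences, and in those of Il21r, Il7r and Tslp, was not tested.

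**Figure D5:**
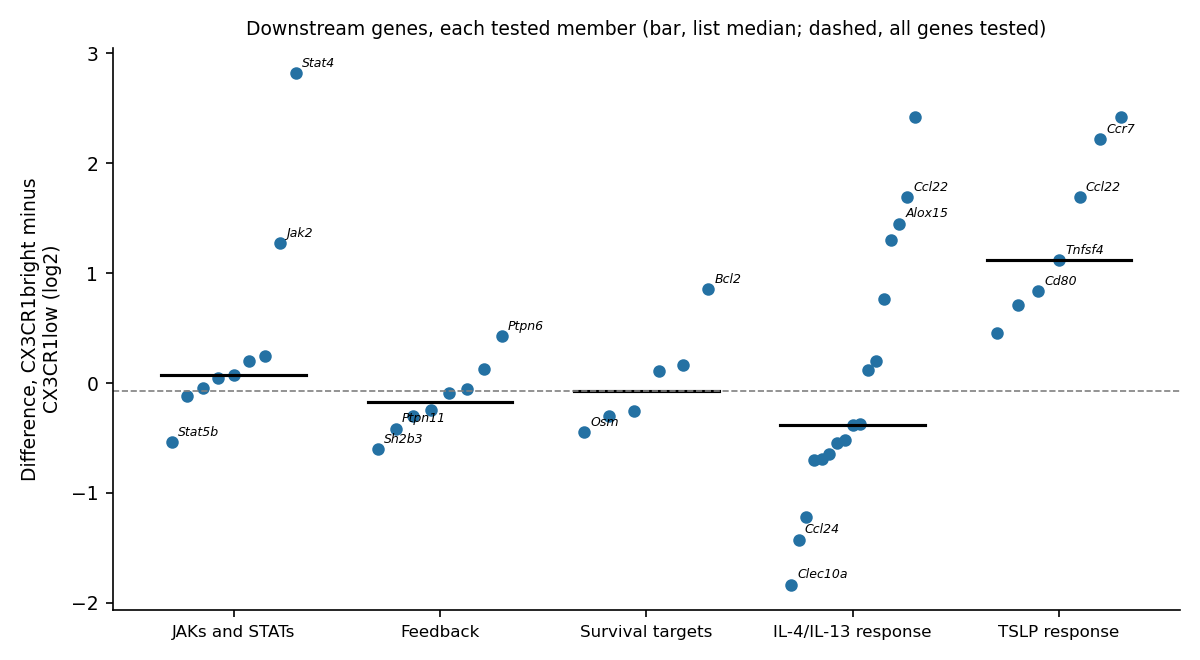
Difference between the subsets (CX3CR1bright minus CX3CR1low, log2, y axis) for each tested gene of 5 downstream lists (x axis), with bars at the list medians and a dashed line at the median of all tested genes, -0.070; some of the genes given in the text are labelled. Stat4 is the point that passed the test, and all 7 points of the TSLP response list lie above 0.

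The tested genes whose 4 values ran most like those of Il21r, by Euclidean distance after each gene's own mean was subtracted, were Ccr7 (distance 0.26), the ADAM family gene Adam23 (0.26), Flt3 (0.27), Cytip (0.31) and Parvg (0.35). Flt3, a growth factor receptor of dendritic cells, stood at 4.06 and 4.58 in CX3CR1low and at 6.41 and 6.50 in CX3CR1bright. Cytip, a cytohesin-binding protein of leukocytes, stood at 6.47 and 6.65 against 8.54 and 8.31, and Parvg, an actin-linked adhesion protein of leukocytes, at 6.16 and 6.02 against 7.87 and 8.06. The likeness is over 4 arrays, which all these genes share, and is a description.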

How the data were processed

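RNA of 4 sorted pools was amplified and labelled by the Affymetrix WT Pico kit (source: the labels' protocols). Per the submitters' processing notes the authors ran RMA in Expression Console 1.4, and the deposited values are its log2 levels. RMA corrects background, equalises arrays and summarises probes, and detection calls and probe intensities were not used here. Of 34390 rows, 23521 had 1 gene symbol in the platform annotation, 1814 several and 9055 none; single-symbol rows gave 22180 genes, and each member had 1 row. Genes were tested where 2 or more arrays exceeded their own median (13133 genes). limma 3.58.1 in R 4.3.3 (lmFit, eBayes, two-sided) compared CX3CR1bright with CX3CR1low, with 2 residual and 3.28 prior degrees of freedom; the procedure was tested on simulated data. The number of arrays limits the precision. Summed levels are log2 of the sum of a list's linear levels. The members and lists were chosen with earlier results of these data known. The genes given values are the members, the 5 genes most like Il21r, Cx3cr1, all 9 ligand and partner chain genes, and up to 4 genes per list with the smallest p plus any past the threshold; others are marked as chosen after their values were seen. RefSeq promoters matched 8 members by symbol. Protein sequences were not used here. Alternatives were other filters, scalings, variance models and background limits, the mean of a gene's rows, the replicate number as a block, and each array left out.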

Additional observations from a re-analysis of the deposited data

How the results depend on the processing

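All members but Il2rb kept the sign of their difference under the 13 alternatives; Il2rb ran from -0.59 to 0.86 with 1 array left out and was negative without CX3CR1low replicate 2 (-0.59) and without CX3CR1bright replicate 1 (-0.46). The count of 18 genes past the threshold (8 higher, 10 lower, limma) was 1 with no filter on dim genes, after quantile normalization and under a robust prior, 88 with a stricter filter, 33 after cyclic loess (19 higher, 14 lower) and 308 under an intensity trend. The count of 1 member was 0 with no filter, after quantile normalization and under a robust prior (limma, 4 members at an unadjusted p under 0.05 in each), and 3 with the stricter filter and the trend. With the replicate number as a block, 0 genes and 0 members passed (limma, 2637 and 5 at an unadjusted p under 0.05); same-numbered arrays' deviations correlated at 0.16 over genes, and with 2 pairs whose litters are not stated they share only a number. With 1 array left out the counts ran from 0 to 154 genes and from 0 to 1 member; they were 0 when either CX3CR1low array (replicate 1 or replicate 2) or the second CX3CR1bright array was left out (limma, 1453, 1212 and 2180 genes and 4, 4 and 5 members at an unadjusted p under 0.05) and 154 and 1 without CX3CR1bright replicate 1. The counts of members above background stayed at 8 or 9 under all alternatives run. Signal near background limits Il21r in CX3CR1low and Tslp in CX3CR1bright.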
